A study of Homo sapiens with 4 samples.

Results

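Wide RNAPII domains without TAF3 or H3K4me3 are stretches of at least 5000 bp that were called as a single RNA polymerase II (RNAPII) peak and share no base with any peak of the authors' filtered TAF3 or H3K4me3 lists. They numbered 758 of the 25013 filtered RNAPII peaks. All values come from HCT116, an established human colorectal carcinoma line, grown without any treatment or genetic change that the labels name. Of 4 libraries, 1 each was made with antiserum to TAF3 (raised to part of the human protein), antibody to H3K4me3 or antibody N-20 to RNAPII, and 1 was input DNA. Fixation was for 10 min in 1% formaldehyde. There are no replicates, so no spread between cultures is known and no test between conditions exists. Intervals below are 95% intervals on shares of peaks (Wilson, or Newcombe for a difference), which cover the counting of peaks alone. Neighbouring peaks are not independent, so these intervals are too narrow.

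TAF3 is a subunit of TFIID, the general transcription factor that binds core promoters, and its PHD finger binds trimethylated lysine 4 of histone H3. H3K4me3 marks the start of active genes and falls off into the gene body. RNAPII starts at promoters, often pauses just downstream, and then travels through the gene body to and beyond its 3′ end, so RNAPII can be crosslinked far from the promoter. The N-20 antibody was raised to the N terminus of the largest RNAPII subunit, outside the C-terminal repeats whose phosphorylation differs between initiating and elongating enzyme.

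The domains were chosen by the width of the RNAPII peak and by the absence of the other lists, so their width and RNAPII strength are given as a description. The median domain was 6610.5 bp wide (quartiles 5726.25 and 8526.5 bp). Of the 758, 255 were under 6000 bp, 110 were 10000 bp or more and 6 were 20000 bp or more. Just inside the minimum were chr1:43835354-43840363 (5010 bp, 17.6-fold enrichment over input), chr2:240036695-240041706 (5012 bp, 8.97-fold) and chr11:69529869-69534881 (5013 bp, 14.1-fold). Just outside it were peaks of 4995, 4992 and 4990 bp with 20.2-, 13.8- and 12.5-fold enrichment. Fold enrichment here is the authors' own value, the RNAPII tags at the summit relative to the local background that MACS expected from input.

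Most wide RNAPII peaks had either both partners or neither, in nearly equal numbers. Of 1615 RNAPII peaks of at least 5000 bp, 758 had neither partner (46.9%) and 770 had both TAF3 and H3K4me3 (47.7%), while 67 had H3K4me3 alone and 20 had TAF3 alone. The domains without partners covered 5.84 Mb, 10.7% of the bases in RNAPII peaks, and held 679455 tags, 7.81% of the tags in RNAPII peaks. The 770 with both partners covered 6.67 Mb and held 16.9% of the tags.

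The domains without partners were lower than wide peaks with TAF3 and H3K4me3. Their median fold enrichment was 22.9 (quartiles 15.2 and 34.2), compared with 116.7 (86.6 and 155.6) for the wide peaks with both partners, 17.6 (12.6 and 25.4) for shorter peaks with neither partner and 44.8 for all RNAPII peaks. In tags per kb of peak the medians were 96.1 for the domains, 192.9 for wide peaks with both partners and 70.1 for shorter peaks with neither. An enrichment above 50-fold was reached by 82 of the 758 domains (10.8%), against 47.5% of all RNAPII peaks, and above 100-fold by 10 (1.32%), against 26.5%. These shares come from the library that chose the domains and carry no test. Across the 758 domains, which share a library and an input, the rank correlation was 0.21 between width and fold enrichment and 0.32 between width and tags per kb.

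**Figure D1:**
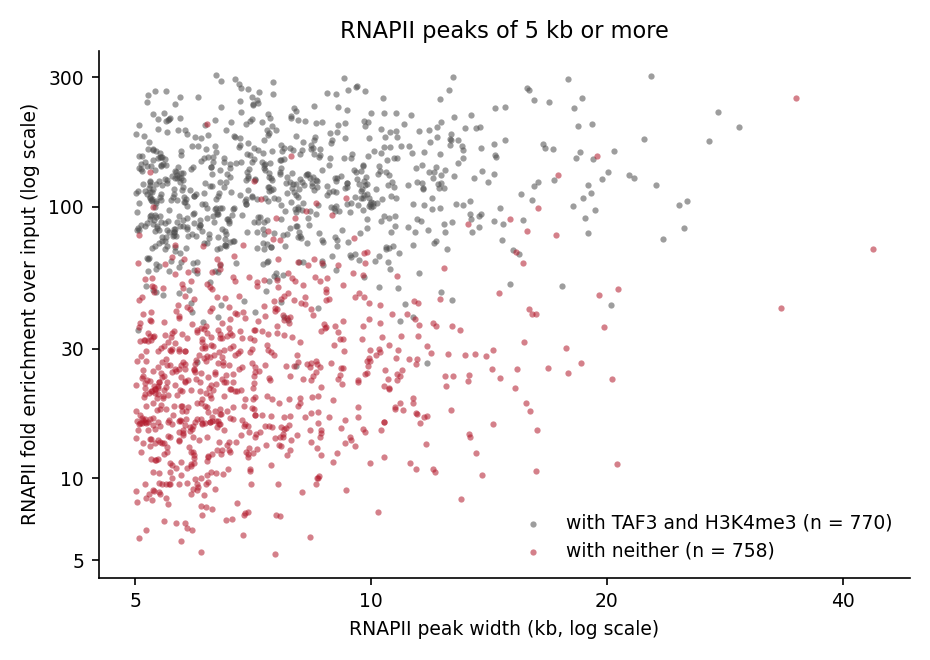
Each point is 1 filtered RNAPII peak of 5 kb or more, by width (x axis, kb, log scale) and fold enrichment over input (y axis, log scale). Red points, the 758 with neither partner, lie mostly under 50-fold with a median of 22.9-fold, and grey points, the 770 with TAF3 and H3K4me3, lie mostly above it with a median of 116.7-fold.

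A few domains reached the enrichment typical of wide peaks with both partners. The strongest was chr9:21499625-21534538, which was 34914 bp wide, with 11543 tags (331 per kb) and an enrichment of 251-fold. Its summit lay 22116 bp from the left edge, and the nearest TAF3 peak, of 18.1-fold, was 21188 bp away under an RNAPII peak of 246-fold. RNAPII peaks, another wide domain among them, covered 73.1% of that gap. Farther from the domain, the same 246-fold RNAPII peak also overlapped a stronger TAF3 peak, of 137-fold. The second, chr6:74221164-74227341, reached 202-fold in 6178 bp. It sat 1726 bp from a TAF3 peak of 149.7-fold, and RNAPII peaks covered 88.5% of the bases between them. Close behind were chr19:13940672-13948573 (153.9-fold) and chr4:75239425-75258830 (153.6-fold, 19406 bp wide). Each had an RNAPII peak that carried TAF3 at most 1 kb from its edge. The gaps to the TAF3 peaks themselves were 1897 and 7041 bp. The other 6 of the 10 strongest had 103- to 134-fold enrichment. Among them chr3:98544558-98553069 stood apart, with the highest density of any domain (489 tags per kb) and its nearest TAF3 peak 64234 bp away, across a gap of which RNAPII peaks covered 84.4%.

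The widest domains were mostly not the strongest. The widest, chr6:159180836-159224557, stretched over 43722 bp with 9470 tags and an enrichment of 69.9-fold. Its nearest TAF3 peak, of 115.0-fold, lay 13032 bp away, with 97.5% of the gap under RNAPII peaks. It was followed by the domain on chromosome 9 described above, by chr16:87860180-87893587 (33408 bp, 42.5-fold), chr7:130556133-130576788 (20656 bp, 49.7-fold) and chr10:114762724-114783329 (20606 bp, 11.3-fold). The chromosome 10 domain had a low summit but a density of 100.3 tags per kb, close to the median of 96.1. At the low end of density were chr19:11555315-11560540 with 45.5 tags per kb and chr19:1618054-1623400 with 46.6.

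Absence of TAF3 and H3K4me3 from the filtered lists was in most domains also absence from the full lists, which hold every peak MACS called. Only peaks that failed the authors' filter (above 5-fold and a false discovery rate under 5%) could still overlap a domain. Such a TAF3 peak overlapped 50 of 758 domains (6.60%, 5.04 to 8.59%), against 18.8% of all 11141 RNAPII peaks with neither partner, and such an H3K4me3 peak overlapped 28 (3.69%, 2.57 to 5.29%), against 11.5%. Either was present at 62 domains and none at 696 (91.8%), against none at 77.1% of all RNAPII peaks with neither filtered partner. The TAF3 share differed by -13.1 percentage points (-14.8 to -11.0) from that in the 10383 shorter peaks with neither partner, and the H3K4me3 share differed by -8.39 points (-9.69 to -6.69), although a wider peak offers more bases to overlap. Per Mb of peak, there were 11.7 such TAF3 overlaps in the domains and 115.7 in the shorter peaks, and 5.83 and 70.3 such H3K4me3 overlaps. Against shorter peaks of 4000 bp or more the difference was no longer distinct, at -2.69 points (-6.06 to 0.37) for TAF3 and -1.06 (-3.65 to 1.20) for H3K4me3, so the contrast lies with the short end of the width range. Peaks under 1000 bp had such a TAF3 peak in 37.7% and those of 2000 to 2999 bp in 8.86%.

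The TAF3 and H3K4me3 peaks found inside domains had to fail the authors' filter, and most failed on the false discovery rate, since 47 of the 50 TAF3 peaks and 26 of the 28 H3K4me3 peaks (the strongest in each domain) were above 5-fold. Their median enrichment was 9.22-fold for TAF3 and 11.2-fold for H3K4me3. The highest TAF3 fold enrichment was 13.8, in chr10:102118331-102126396, followed by 13.1 in chr20:30297615-30306359 and 12.5 in chr12:89325265-89330493. The strongest H3K4me3 peak, of 23.1-fold, lay in chr3:10045922-10051824, a domain with a filtered H3K4me3 peak 280 bp beyond its edge, and the next, of 16.6-fold, in chr11:2931519-2939943. These small peaks often sat exactly where RNAPII was highest, a pattern looked at after some of these positions were seen. The strongest such TAF3 peak, with a median width of 652 bp, spanned the RNAPII summit in 32 of 50 domains (64.0%, 50.1 to 75.9%), although it covered on average 10.6% of the domain. For H3K4me3 the count was 18 of 28 (64.3%, 45.8 to 79.3%), with 13.4% of the domain covered. In the strongest domain of all, on chromosome 9, a TAF3 peak of 12 tags (8.96-fold) at chr9:21521587-21521964 spanned the summit. In shorter peaks the TAF3 share was 92.6%, where the TAF3 peak covered on average 62.6% of the RNAPII peak. Whether the RNAPII signal at the summit enters the other libraries was not tested. The 62 domains with such a peak had a median RNAPII enrichment of 36.6-fold and the other 696 of 21.7-fold.

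**Figure D2:**
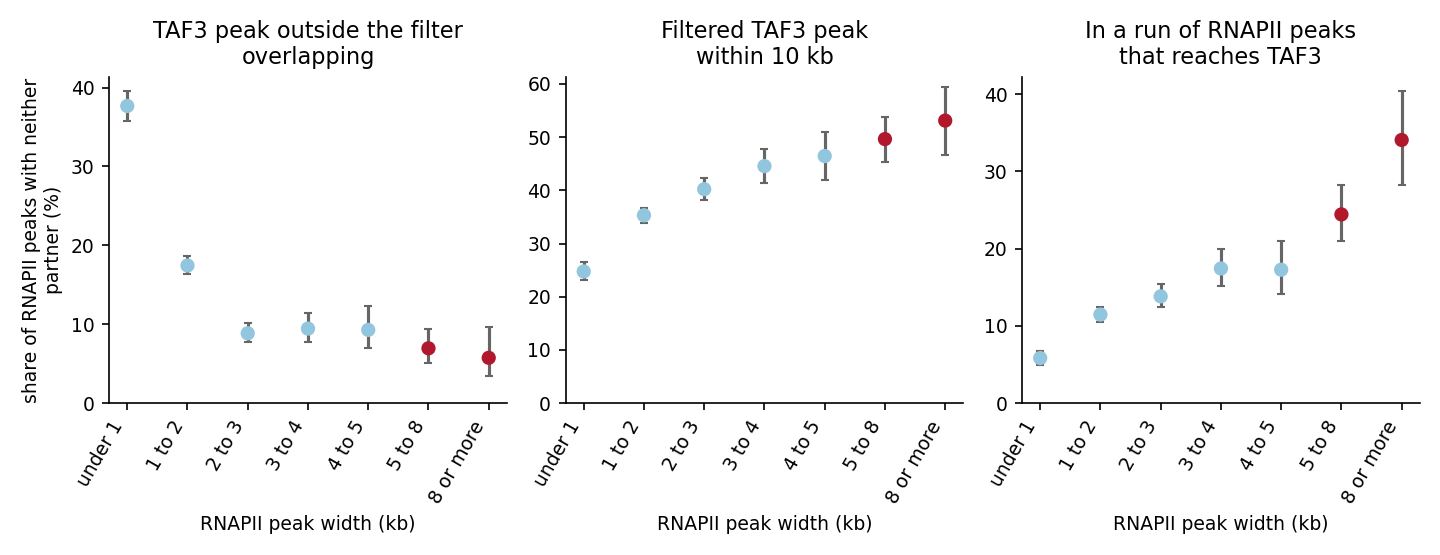
RNAPII peaks with neither partner, grouped by width (x axis, kb), with the share in each group (y axis, %) and its Wilson 95% interval. Blue points are peaks shorter than 5 kb and red points the domains. The share with a TAF3 peak outside the filter fell from 37.7% to 5.75%, while the share within 10 kb of a filtered TAF3 peak rose from 24.7% to 53.1% and the share in an RNAPII run that reaches TAF3 from 5.84% to 34.1%.

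Within 20 kb of a TAF3 peak lay 530 of 758 domains (69.9%), against 54.7% of all RNAPII peaks with neither partner. Measured edge to edge, the gap to the nearest filtered TAF3 peak had a median of 9841.5 bp, with quartiles at 4026.75 and 24183.75 bp. The gap to H3K4me3 had a median of 8519.5 bp. Within 10 kb of a TAF3 peak were 384 domains (50.7%, 47.1 to 54.2%), against 36.0% of all RNAPII peaks with neither partner and 35.0% of the shorter ones, a difference of 15.7 points (12.0 to 19.3). That difference depended on measuring from the edge. From RNAPII summit to TAF3 summit, 31.8% of domains lay within 10 kb and the difference was 2.17 points (-1.17 to 5.68), and against shorter peaks of 4000 bp or more it was 4.22 points edge to edge (-1.55 to 9.95). With the full TAF3 list, where an overlap counts as a gap of 0, it was 0.77 points (-2.90 to 4.37).

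The closest domains all but touched a TAF3 peak. The gap to TAF3 was 163 bp at chr19:55974237-55979976, 176 bp at chr19:800131-815770 and 344 bp at chr5:474705-481037. TAF3 lay within 10 kb on both sides of 86 domains (11.3%), against 5.39% of all RNAPII peaks with neither partner, and on 1 side only of 298 (39.3%), against 30.7%. At the far end, 91 domains (12.0%) lay more than 50 kb from any TAF3 peak, against 23.0% of all RNAPII peaks with neither partner. The shares on both sides, on 1 side and beyond 50 kb were all measured edge to edge. No comparison from summit to summit, or with shorter peaks of 4000 bp or more, is given for them. The greatest distance was 304016 bp, and the 5 farthest domains included chr7:127738484-127745063 at 238095 bp, chr2:23907563-23913632 at 234988 bp and chr10:114926592-114932592 at 212424 bp. These 91 had a median of 16.99-fold enrichment, compared with 24.2-fold for the 384 within 10 kb.

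The TAF3 peaks next to domains were close in strength to TAF3 peaks at large and lay under broader RNAPII. The nearest TAF3 peak had a median of 39.8-fold enrichment and 1894.5 bp for domains, 39.1-fold and 1723 bp for shorter peaks, and 36.1-fold and 1549 bp over all 11765 TAF3 peaks. RNAPII enrichment on that TAF3 peak was also alike, at a median of 108.2-fold for domains and 112.3-fold for shorter peaks. RNAPII there was wider for domains, as was the TAF3 peak itself. The median RNAPII width was 2924 bp for domains and 2246 bp for shorter peaks. The nearest TAF3 peak lay under an RNAPII peak of 5000 bp or more for 210 domains (27.7%, 24.6 to 31.0%), against 15.1% of all RNAPII peaks with neither partner, and the difference from the shorter ones was 13.5 points (10.4 to 16.9). With only the closest domain, and the closest shorter peak, of each TAF3 peak, that difference was 12.1 points (8.90 to 15.5). Over all TAF3 peaks, each counted once, the share was 8.20%. The values for domains and shorter peaks instead count a TAF3 peak once for every peak it is nearest to.

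The domains rarely stood alone along the chromosome. Another filtered RNAPII peak lay within 5 kb of 654 domains (86.3%, 83.6 to 88.5%), against 65.3% of all RNAPII peaks with neither partner, a difference of 22.5 points from the shorter ones (19.7 to 24.98). Some domains had more than 1 kind of neighbour within 5 kb. A neighbour carried TAF3 at 277 domains (36.5%, against 23.7%) was another wide domain at 134 (17.7%, against 8.03%), and was a shorter peak with neither partner at 448 (59.1%, against 49.5%). For any RNAPII neighbour, the difference against shorter peaks of 4000 bp or more was 4.21 points (0.04 to 8.59). A wide domain as neighbour was about as frequent in peaks with neither partner of 4000 to 4999 bp, at 16.6% (13.5 to 20.3%). In domains of 5000 to 7999 bp that share was 16.5% (13.6 to 19.9%).

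RNAPII peaks separated by at most 1 kb were joined into runs, and most domains lay in runs that did not reach TAF3. Of the domains, 207 (27.3%, 24.3 to 30.6%) lay in a run that reached a TAF3 peak, against 12.4% of all RNAPII peaks with neither partner. The difference from shorter peaks was 16.0 points (12.9 to 19.3), and it was 10.03 points (5.23 to 14.6) against those of 4000 bp or more. The only peak of their run were 257 domains (33.9%), against 57.4% of all RNAPII peaks with neither partner. The 758 domains fell in 691 runs, of which 51 held at least 2 domains and 17 of those reached a TAF3 peak. Within runs, 67 pairs of successive domains lay at a median gap of 444 bp, and 17 of these gaps were shorter than 100 bp. The largest was 31668 bp, so other RNAPII peaks lay between the domains of some pairs.

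RNAPII peaks covered more of the gap to the nearest TAF3 peak for domains than for shorter peaks. In most domains they still covered less than 50% of it. Filtered RNAPII peaks, including the one on the TAF3 peak itself where it reached into the gap, covered a median of 31.0% of that gap for domains and 6.21% for shorter peaks. At least 50% was covered for 295 domains (38.9%, 35.5 to 42.4%), against 19.0% of all RNAPII peaks with neither partner, and at least 90% for 140 (18.5%, 15.9 to 21.4%), against 5.9%. The difference from shorter peaks in the first of these was 21.4 points (17.9 to 24.95), and 10.8 points (5.39 to 16.1) against those of 4000 bp or more.

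Gaps covered to 50% or more were a larger share for domains than for shorter peaks at every distance compared. With TAF3 up to 10 kb away, 45.8% of 384 domains and 32.0% of shorter peaks had at least 50% of the gap covered, a difference of 13.9 points (8.72 to 19.1). From over 10 kb to 50 kb the shares were 29.0% of 283 and 12.4%, a difference of 16.6 points (11.5 to 22.2). Beyond 50 kb they were 40.7% of 91 and 5.30%, a difference of 35.4 points (25.8 to 45.7). This last value rests on few places, since the 37 such gaps of domains beyond 50 kb led to 11 TAF3 peaks. With only the closest domain, and the closest shorter peak, of each TAF3 peak in the range, the shares beyond 50 kb were 17.5% of 57 and 1.25%, a difference of 16.3 points (8.53 to 28.1).

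**Figure D3:**
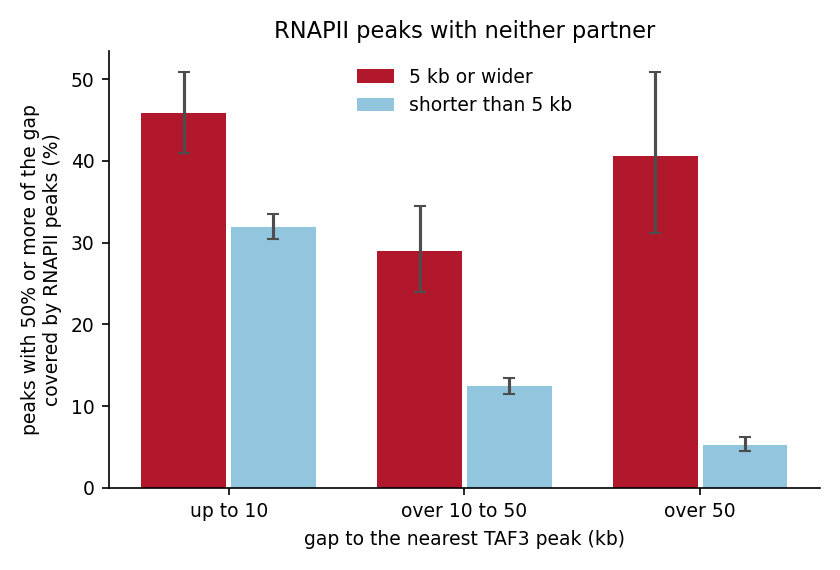
Share of RNAPII peaks with neither partner (y axis, %) whose gap to the nearest TAF3 peak was at least 50% covered by other RNAPII peaks, by the length of that gap (x axis, kb). Red bars are the domains, blue bars shorter peaks, and lines Wilson 95% intervals. The domains were higher in each range, at 45.8% against 32.0%, 29.0% against 12.4% and 40.7% against 5.30%.

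Several long stretches held many domains in a row, and these were picked out after their values were seen. On chromosome 12, 7 domains between 88881961 and 88966084 formed 1 run of 10 RNAPII peaks over 92901 bp. The run ended on a single TAF3 peak of 93.8-fold at chr12:88971827-88974932, which overlapped an RNAPII peak of 156.0-fold and an H3K4me3 peak of 206-fold. Fold enrichment of the 7 domains ranged from 30.1 to 98.7, and the highest was in the domain farthest from TAF3, chr12:88881961-88898290, at 73536 bp. RNAPII peaks covered at least 94.5% of the gap for each of the 7.

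On chromosome 10, 11 domains between 114752727 and 114932592 shared 1 nearest TAF3 peak, of 72.0-fold, at chr10:114709463-114714167, from which they lay 38559 to 212424 bp away. They covered 104438 bp and were mostly weak, at 6.10- to 38.8-fold. On chromosome 4, 10 domains between 187503164 and 187638261 shared a TAF3 peak of 72.6-fold at chr4:187644091-187648683 and had 14.0- to 36.8-fold enrichment. Of these, 5 lay in a run of 16 RNAPII peaks over 78211 bp that reached the TAF3 peak. Another 9 domains on chromosome 12, between 66244528 and 66364098, shared a TAF3 peak of 73.5-fold. In all, 651 TAF3 peaks were the nearest to at least 1 domain, and 172 domains shared theirs with another domain.

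**Figure D4:**
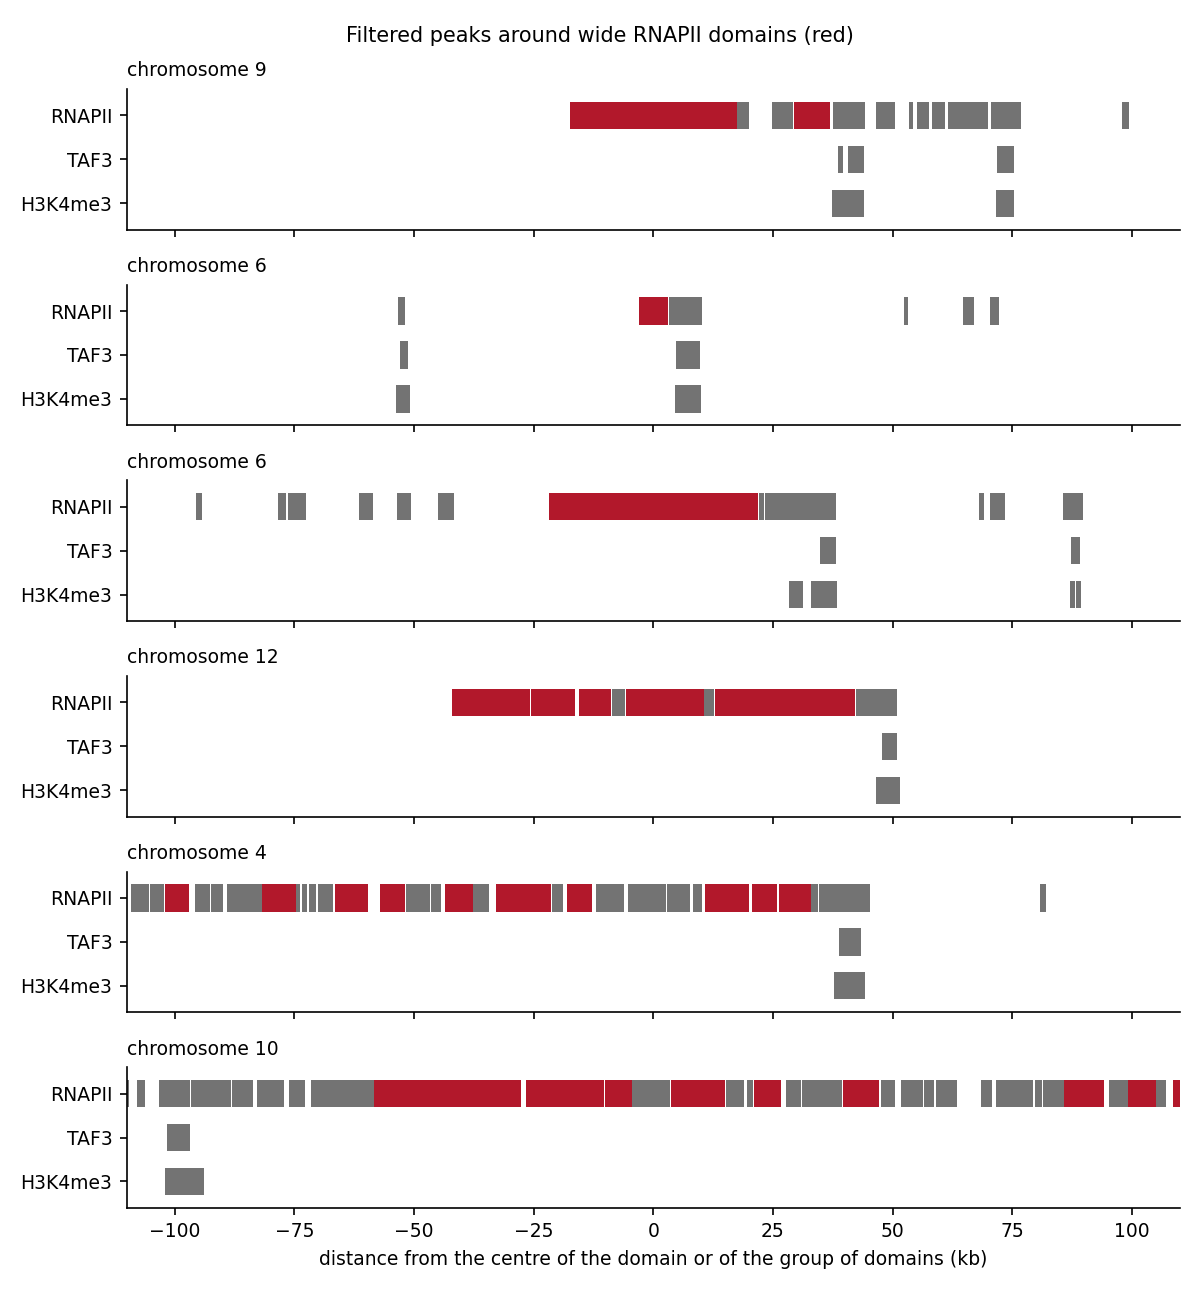
Filtered peaks of RNAPII, TAF3 and H3K4me3 (rows) by distance in kb (x axis) from a centre. Shown are the 2 strongest domains (chromosomes 9 and 6), the widest domain (chromosome 6) and the groups of 7, 10 and 11 domains that share a TAF3 peak (chromosomes 12, 4 and 10). The centre is the middle of the single domain, or of the 7 domains on chromosome 12. On chromosomes 4 and 10 it is the middle of the 5 and 4 domains that lie in 1 run, not of the whole group. Red bars are wide RNAPII domains without TAF3 or H3K4me3, and grey bars all other filtered peaks. The window reaches 110 kb to either side and shows 10 of the 11 domains on chromosome 10. On chromosome 12 a series of 7 domains leads to 1 TAF3 peak, and on chromosome 10 domains stretch up to the edge of the window with 1 TAF3 peak on the left.

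Within a domain, the RNAPII summit lay about as often on the side facing TAF3 as on the other. It lay on the side of the midpoint that faces the nearest TAF3 peak in 365 domains (48.2%, 44.6 to 51.7%), against 49.6% of all RNAPII peaks with neither partner, and the difference from shorter peaks was -1.53 points (-5.20 to 2.15). Among the 384 domains within 10 kb of TAF3 the share was 47.1% (42.2 to 52.1%). For domains of 8000 bp or more it was 42.5% (36.2 to 49.0%). That interval lies just below 50% and is too narrow, because neighbouring domains are not independent. At 10000 bp or more the share was 41.8%, with an interval of 33.0 to 51.2% that includes 50%.

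Summits lay away from the ends more often than in wide peaks with both partners. The outermost 20% at either end held the summit in 174 domains (23.0%, 20.1 to 26.1%), against 14.8% of all RNAPII peaks with neither partner and 45.7% of the 770 wide peaks with both partners (42.2 to 49.2%). The difference from the wide peaks with both was -22.8 points (-27.3 to -18.1). The difference from shorter peaks was 8.76 points (5.82 to 12.0), and 0.49 points (-4.44 to 5.23) against those of 4000 bp or more.

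**Figure D5:**
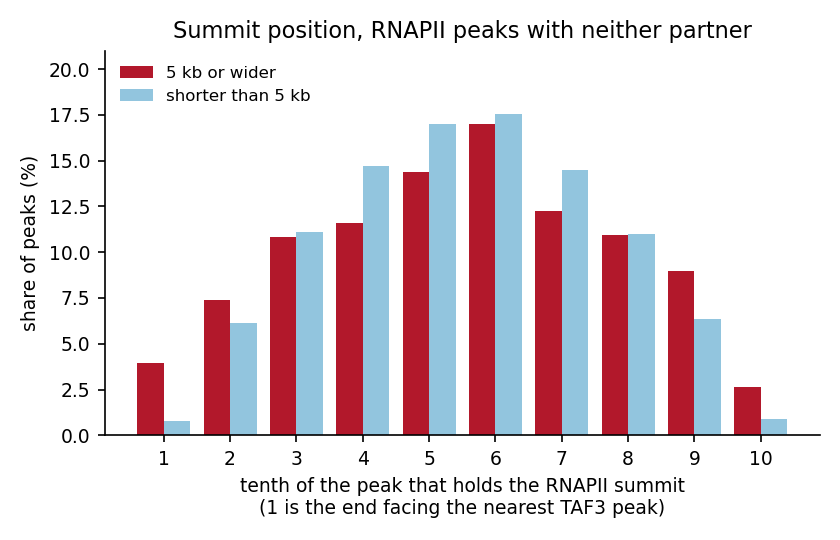
Share of peaks (y axis, %) by which of 10 equal parts of the peak holds the RNAPII summit (x axis, part 1 being the end that faces the nearest TAF3 peak), for the domains (red) and shorter peaks with neither partner (blue). Both are highest in the middle, and the outermost 10% at either end held 3.96% and 2.64% of domains against 0.80% and 0.90% of shorter peaks.

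Domains were unevenly spread over the chromosomes. Chromosome 17 held 90 domains, 10.4% of its RNAPII peaks with neither partner (8.57 to 12.7%), and chromosome 16 held 53 (9.19%, 7.09 to 11.8%). At the other end, chromosome 2 held 32 (4.37%, 3.11 to 6.11%), chromosome X held 3 (1.67%, 0.57 to 4.78%) and chromosome 18 held 2 (1.65%). Chromosome 19 lay between, with 79 (7.99%, 6.46 to 9.84%). Over all chromosomes the domains were 758 of 11141 RNAPII peaks with neither partner. Chromosomes 17 and 19 together carried 22.3% of the domains and 15.0% of all RNAPII peaks, with partners or without. Of the 11141 peaks with neither partner, 862 lay on chromosome 17 and 989 on chromosome 19. Wide peaks with both partners were also many there, with 99 of the 770 on chromosome 17 and 87 on chromosome 19. Without these chromosomes the domains still differed from shorter peaks in the share in a run that reaches TAF3, by 15.5 points (12.1 to 19.2).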

How the data were processed

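Peaks were called by the authors with MACS 1.4.2 (CASAVA 1.8.2 and build hg19 per the submitters' processing notes; which aligner was run is not given in the sources used here). Each antibody was called alone against the same input, per the file headers, with a p cutoff of 1e-05 and at most 1 tag per position. After that step 16841238 RNAPII, 17411155 TAF3, 12560129 H3K4me3 and 19185386 input tags remained. Per peak, the authors deposited an unscaled tag count, a fold enrichment (ratio to the local background), a score of -10 times log10 of p, and a false discovery rate in percent. Peak width depends on depth and on how MACS joins tags. The filtered lists held exactly the full-list peaks above 5-fold with a rate under 5%.

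Overlap needed 1 base, and gaps count the bases between edges. Domains were set beside shorter RNAPII peaks with neither partner and wide peaks with both. The members, lists and comparisons were chosen with earlier results of these data known. Named regions were taken from the 3 to 10 most extreme in fold enrichment, width, density, distance to TAF3 and strength of a partner peak outside the filter, and not every one of these is named; runs were named after their values were seen. Coordinates are hg19, counted from 1. The annotation at hand was of another build, so genes, strand and sequence are not analysed here. The member count equalled that of bedtools 2.31.1, and 7 of 7 checks on simulated data passed. Tables and intervals were made in pandas 2.3.3 and scipy 1.17.1 under Python 3.11.15.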

Additional observations from a re-analysis of the deposited data

How the results depend on the processing

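The values rest on 1 library per antibody, and the comparisons with chromosomes 17 and 19 left out, with shorter peaks of 4000 bp or more, with 1 peak per TAF3 peak and from summit to summit were chosen after seeing the data, as were the differences themselves. No paired analysis was possible because each antibody has 1 library, and for the same reason no library could be left out. Of 135 alternative values, 102 kept their call or stayed in the interval of the reported value and 0 reversed. A reversal could be called only for differences from shorter peaks whose reported interval left out 0. Counts, medians and shares could not reverse. Leaving out chromosomes X and Y, or 17 and 19, ended no call.

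With a width minimum of 4000, 8000 and 10000 bp there were 1221, 226 and 110 domains, with a median fold enrichment of 20.55, 26.5 and 26.5 and a median of 90.002, 110.9 and 111.5 tags per kb. At 8000 and 10000 bp another RNAPII peak lay within 5 kb of 89.4% and 90% and the summit faced TAF3 in 42.5% and 41.8%, the former differing from shorter peaks by -7.25 points (-13.6 to -0.67). At 10000 bp a TAF3 peak outside the filter overlapped 3.64%, TAF3 lay within 10 kb of 54.5%, and the difference in summits in the outermost 20% was 4.34 points (-1.95 to 12.7). Counting only partner peaks above 10-fold, TAF3 overlapped 2.37% and H3K4me3 2.11%. TAF3 lay within 5, 20 and 50 kb of 30.6%, 69.9% and 88.0%, within 10 kb of 57.5% with the full TAF3 list (difference 0.77 points) and of 31.8% from summit to summit (2.17 points). Another RNAPII peak lay within 1 kb of 66.1%, within 20 kb of 96.3%, and within 5 kb of 98.5% with the full RNAPII list. Against shorter peaks of 4000 bp or more the differences were -2.69 points for TAF3 and -1.06 for H3K4me3 outside the filter, 4.22 for TAF3 within 10 kb and 0.49 for summits in the outermost 20%.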

Other observations

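The authors' filter left out 3 RNAPII peaks of 5000 bp or more without a filtered partner. Of these, chr17:48831705-48838287 had 33.8-fold enrichment and 664 tags over 6583 bp, and failed on a false discovery rate of 18.2%. The others, chr16:89372385-89377574 and chr16:89646846-89652308, had 3.97- and 3.91-fold enrichment.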
